A study of Homo sapiens with 5 samples.

Results

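The cyclins and cyclin-dependent kinases that carry a cell from growth signals to mitosis were followed in cells given a short hairpin RNA against BPTF, the largest subunit of the NURF chromatin remodelling complex. The 10 genes are CCND1, CCND2, CCND3, CCNE1, CCNE2, CCNA2, CCNB1, CDK1, CDK4 and CDK6. They were chosen by symbol from the textbook cell cycle and matched through GENCODE 29 names to the Ensembl identifiers of the count tables, where all 10 were found among the 31029 genes listed in all 5 libraries. The libraries come from 2 human pigment cell lines, both infected with a lentivirus expressing a short hairpin RNA against BPTF (shBPTF) and selected for 5 days with puromycin at 3 µg/ml. 501Mel is a melanoma line and gave 2 libraries. Hermes 3A is an immortalised line of normal melanocytes and gave 3 libraries. Both lines grew in RPMI with foetal calf serum, and the Hermes 3A medium also held the phorbol ester TPA, cholera toxin, human stem cell factor and endothelin-1. The counts of shControl cells were not analysed here, so every difference below is between cell lines that both carry the knockdown. It cannot be told apart from a difference in medium, in the extent of knockdown or between the lines before infection. Nor can a difference in how the counts were made be set apart. The 501Mel files listed 37259 genes and the Hermes 3A files 34033, for a reason not given. Which BPTF hairpin went into each library is not given in the sources used here, nor is the way in which Hermes 3A cells were immortalised. Melanocyte lines of this kind often carry an introduced CDK4 coding sequence, and its reads would count on CDK4.

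Cyclins are the regulatory subunits that switch on the cyclin-dependent kinases (CDKs), and most of them are made and destroyed once in each division. D-type cyclins pair with CDK4 and CDK6 in G1, respond to mitogens and begin the phosphorylation of RB, which releases the E2F factors. E-type cyclins with CDK2 then start DNA replication, cyclin A2 acts through S phase and into G2, and cyclin B1 with CDK1 drives entry into mitosis. In the melanocyte lineage the CDK4 and CDKN2A axis is known for its inherited mutations in melanoma families, and CCND1 is amplified in part of melanomas.

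Total counts ran from 30073071 to 43032311 per library, and 3 counts on a gene corresponded to 0.0697 to 0.0998 CPM (counts scaled to the library total), which covers counting error only. BPTF itself (ENSG00000171634, chromosome 17) stood at 65.8 and 57.8 CPM in 501Mel cells and at 45.8, 51.6 and 54.1 CPM in Hermes 3A cells. The lines did not overlap in BPTF, but the fitted log2 fold change of -0.23 (SE 0.139, 95% interval -0.56 to 0.10) did not pass the test (adjusted p = 0.211, edgeR quasi-likelihood test), and without shControl values the counts give no check of the knockdown. Of the 9 melanocyte markers all were expressed, with summed levels of 13417 and 20355 CPM in 501Mel cells and 32258 to 33301 CPM in Hermes 3A cells, although the pigment enzyme DCT was at 7.37 to 13.1 CPM in Hermes 3A cells against 1068 and 1300 CPM in 501Mel cells. Keratinocyte markers summed to 32.9 to 48.2 CPM, nearly all from KRT10. Fibroblast markers summed to 18.9 and 4.31 CPM in 501Mel cells and 78.3 to 190 CPM in Hermes 3A cells, where 69.5 to 187 CPM came from COL1A2 alone and COL3A1 was at 0 to 0.299 CPM.

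In these knockdown cells CCND1 and CDK4, which act in G1, were higher in Hermes 3A cells than in 501Mel cells, as was the barely expressed CCND2. CCNE1, CCNE2, CCNA2, CCNB1, CDK1 and CDK6 were lower, and CCND3 did not pass the test. Leaving aside CCND2, the largest differences were in CCNA2, which was 12.9-fold lower in Hermes 3A cells, and in CDK1, which was 10.2-fold lower. All 10 genes passed the filter on low counts and 9 were called at an adjusted p of 0.05, 3 higher and 6 lower. The lines differ widely, however. Of 17918 genes tested, 48.4% were called, 24.1% higher in Hermes 3A cells and 24.3% lower. With a 2-fold change added to the rule 7 of the 10 were called, against 34.3% of all genes. The CPM of the lines did not overlap for 10 of 10 genes, which also held for 69.9% of all genes, so the absence of overlap is in itself no mark of these genes. Without 501Mel replicate 1 fewer of the 10 were called, as were fewer of all genes. The labels do not say whether replicates came from separate cultures, and the p-values measure the spread between these libraries only.

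**Figure D1:**
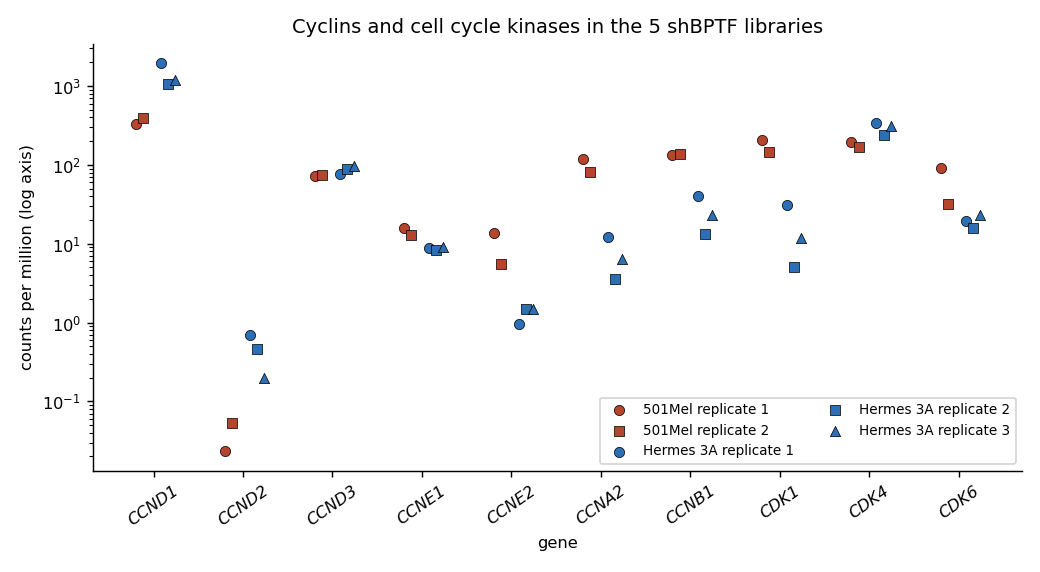
CPM (log axis) of the 10 genes in each of the 5 shBPTF libraries, with 501Mel in red and Hermes 3A in blue. The blue points of CCND1 (1048 to 1942 CPM) lie above its red points, and the blue points of CCNA2, CCNB1 and CDK1 lie well below the red ones and far apart from each other.

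CCND1 (ENSG00000110092, chromosome 11) encodes cyclin D1, the D-type cyclin most closely tied to mitogen signalling. It had 14081 and 14890 counts in 501Mel cells, which is 327 and 393 CPM, and 80902, 42821 and 35866 counts in Hermes 3A cells, which is 1942, 1048 and 1193 CPM. Every Hermes 3A library was above both 501Mel libraries, and Hermes 3A replicate 1 was above the other two. The fitted log2 fold change was 2.03 (SE 0.333, adjusted p = 0.00261, edgeR quasi-likelihood test), a level 4.08-fold higher in Hermes 3A cells, and it was 1.69 without Hermes 3A replicate 1. CCND1 lay at percentile 89.8 of the log2 fold changes of all genes. The paper names CCND1 among the genes repressed after BPTF silencing in Hermes 3A cells. That is a change within this line, which was not analysed here, and not a difference between the lines. LTO1, a gene on the opposite strand that shares 497 exonic bases with CCND1, was at 13.3 to 25.9 CPM.

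CCND2 (ENSG00000118971, chromosome 12) encodes cyclin D2, which replaces cyclin D1 in some tissues. It was close to the limit of detection, with 1 and 2 counts in 501Mel cells and 29, 19 and 6 counts in Hermes 3A cells. The Hermes 3A libraries ranged from 0.200 to 0.696 CPM and the 501Mel libraries were at 0.0232 and 0.0528 CPM, below the value of 3 counts. Scaled to the library totals, 54 counts against 3 gave a ratio of 12.9 with an exact 95% counting interval of 4.20 to 64.7. The edgeR quasi-likelihood test called the gene (adjusted p = 0.0125), but the call was lost without 501Mel replicate 1 (adjusted p = 0.0974) or 501Mel replicate 2 (adjusted p = 0.0535), and without Hermes 3A replicate 1 or 2 the gene did not pass the filter. In both lines CCND2 was a trace beside CCND1.

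CCND3 (ENSG00000112576, chromosome 6) encodes cyclin D3 and was the most even of the 10 genes. It was at 72.6 and 75.1 CPM in 501Mel cells and at 77.4, 88.1 and 97.5 CPM in Hermes 3A cells. The Hermes 3A values were the higher ones, by little. The log2 fold change of 0.31 (SE 0.141, 95% interval -0.02 to 0.64) did not pass the test (adjusted p = 0.108, edgeR quasi-likelihood test), nor did it under any alternative. The interval reaches to a difference of 0.64 on the log2 scale, so CCND3 is not shown to be equal in the lines.

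The make-up of the D cyclins therefore differed. Counted per kb of exon, CCND1 made up 85.3% ± 1.32 (SD, n = 2) of D-type cyclin transcripts in 501Mel cells and 94.6% ± 1.87 (SD, n = 3) in Hermes 3A cells, and CCND3 nearly all of the rest. With the median transcript length in place of the union of exons the shares of CCND1 were 83.7% and 93.9%. Within libraries, the ratio of CCND1 to CCND3 per kb was 5.41 and 6.29 in 501Mel cells against 30.2, 14.3 and 14.7 in Hermes 3A cells. All Hermes 3A ratios were above both 501Mel ratios (exact permutation test, two-sided, p = 0.1, the smallest p that 2 against 3 libraries can give).

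CDK4 (ENSG00000135446, chromosome 12) and CDK6 (ENSG00000105810, chromosome 7) encode the catalytic partners of the D cyclins, and they differed between the lines in opposite directions. CDK4 was at 198 and 170 CPM in 501Mel cells and at 345, 240 and 308 CPM in Hermes 3A cells. The groups did not overlap, and the log2 fold change was 0.77 (SE 0.209, adjusted p = 0.0197, edgeR quasi-likelihood test). The call was lost without 501Mel replicate 1 (adjusted p = 0.0529), 501Mel replicate 2 (adjusted p = 0.101) or Hermes 3A replicate 3 (adjusted p = 0.0531), with log2 fold changes between 0.63 and 0.97 over all libraries left out. CDK4 shares 1369 exonic bases, 43.2% of its exons, with TSPAN31 on the opposite strand. TSPAN31 was at 36.4 and 32.4 CPM in 501Mel cells and at 24.7 to 35.1 CPM in Hermes 3A cells, and CDK4 had 5.25 to 12.4 times its counts.

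The promoter of CDK4 is shown because E-boxes of the CACGTG type, the core bound by MYC and by MITF, stand out in it, and MITF is the melanocyte regulator that the study set beside BPTF. The window runs from 250 bases before to 50 bases after the annotated start and is given 5′ to 3′ on the minus strand of GRCh38.p14 (RefSeq, chr12:57752261-57752560), with each CACGTG and with CATGTG on either strand in capitals.
CDK4: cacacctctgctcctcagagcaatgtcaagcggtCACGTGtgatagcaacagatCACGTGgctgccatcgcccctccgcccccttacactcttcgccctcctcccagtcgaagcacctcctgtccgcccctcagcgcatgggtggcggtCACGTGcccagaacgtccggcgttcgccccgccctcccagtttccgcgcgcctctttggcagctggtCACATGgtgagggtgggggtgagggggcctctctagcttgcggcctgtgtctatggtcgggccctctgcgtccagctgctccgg
CACGTG occurs 3 times and CATGTG 1 time, on the reverse strand. Of 35116 promoter windows of this length, 7.26% hold CACGTG at least once, 0.094% hold it at least 3 times and 11.1% hold CATGTG. A match of letters does not show that a factor was bound. Here and below, the windows and the numbers of matches set against all windows were picked after the search. The shares therefore describe and do not test.

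CDK6 was at 90.9 and 31.9 CPM in 501Mel cells and at 19.6, 16.1 and 23.0 CPM in Hermes 3A cells. All Hermes 3A values were below the 501Mel values, but 501Mel replicate 1 was 2.85 times 501Mel replicate 2. The log2 fold change of -1.58 (SE 0.397, adjusted p = 0.0146, edgeR quasi-likelihood test) was -0.64 without 501Mel replicate 1, with the call lost (adjusted p = 0.116), and -2.12 without 501Mel replicate 2. Within libraries, CDK4 exceeded CDK6 per kb by 8.43 and 20.6 times in 501Mel cells and by 67.9, 57.9 and 51.7 times in Hermes 3A cells. The ratio thus separated the lines (exact permutation test, two-sided, p = 0.1, the smallest possible), and CDK4 made up 92.4% ± 4.22 (SD, n = 2) of the pair in 501Mel cells and 98.3% ± 0.224 (SD, n = 3) in Hermes 3A cells. With median transcript lengths these shares were 76.5% and 93.8%.

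**Figure D2:**
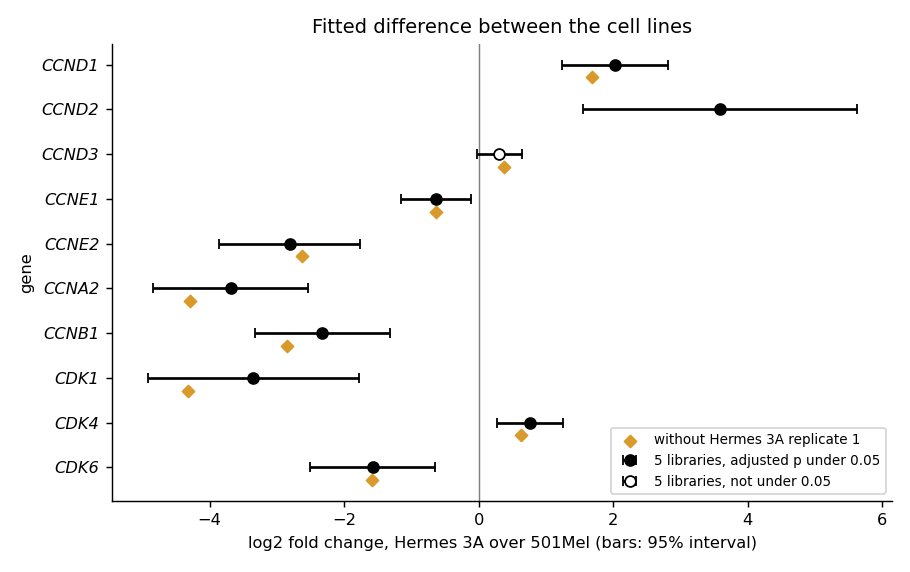
Fitted log2 fold change of each gene, Hermes 3A over 501Mel, with its 95% interval, and the value without Hermes 3A replicate 1 as a diamond where the gene could then be tested. CCND1, CCND2 and CDK4 lie to the right of 0, as does the point of CCND3, which was not called and whose interval includes 0. CCNA2, CDK1 and CCNB1 lie further left without Hermes 3A replicate 1 (-4.30, -4.32 and -2.85).

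CCNE1 (ENSG00000105173, chromosome 19) and CCNE2 (ENSG00000175305, chromosome 8) encode the E-type cyclins that bring CDK2 to the start of replication. CCNE1 was at 15.6 and 12.9 CPM in 501Mel cells and at 8.76, 8.44 and 9.14 CPM in Hermes 3A cells. The Hermes 3A values lay close together and below both 501Mel values. Its log2 fold change of -0.63 (SE 0.221) just passed the test (adjusted p = 0.0490, edgeR quasi-likelihood test), and the call was lost when any library was left out (adjusted p from 0.0518 to 0.214) and with the replicate number as a block (adjusted p = 0.131).

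CCNE2 differed far more. It was at 13.7 and 5.60 CPM in 501Mel cells and at 0.960, 1.49 and 1.50 CPM in Hermes 3A cells, with 40 to 61 counts in each of these. Both 501Mel libraries were above all Hermes 3A libraries, although replicate 1 was 2.45 times replicate 2. The log2 fold change was -2.81 (SE 0.447, adjusted p = 0.00229, edgeR quasi-likelihood test), or 7.02-fold lower in Hermes 3A cells, and it was -2.03 without 501Mel replicate 1. CCNE2 shares 1629 exonic bases, 37.0% of its exons, with INTS8 on the opposite strand, which was at 48.3 to 65.4 CPM. As the strand setting of the counting is not given, some of the few CCNE2 counts in Hermes 3A cells cannot be told apart from INTS8 reads. The ratio of CCNE1 to CCNE2 per kb was 1.96 and 3.97 in 501Mel cells against 15.7, 9.75 and 10.5 in Hermes 3A cells, with no overlap (exact permutation test, two-sided, p = 0.1, the smallest possible). Which E cyclin predominated in 501Mel cells depended on the length used, since CCNE1 made up 73.1% of the pair with the union of exons and 47.7% with the median transcript.

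The genes that act from S phase to mitosis were all lower in Hermes 3A cells, where their libraries also lay far apart. CCNA2 (ENSG00000145386, chromosome 4), cyclin A2, was at 119 and 82.4 CPM in 501Mel cells and at 12.1, 3.55 and 6.35 CPM in Hermes 3A cells. CCNB1 (ENSG00000134057, chromosome 5), cyclin B1, was at 133 and 139 CPM in 501Mel cells and at 40.4, 13.1 and 23.1 CPM in Hermes 3A cells. CDK1 (ENSG00000170312, chromosome 10), the mitotic kinase, was at 205 and 144 CPM in 501Mel cells and at 30.9, 4.99 and 11.9 CPM in Hermes 3A cells. For each of the genes the highest Hermes 3A library was well below the lowest 501Mel library, and the Hermes 3A libraries kept the same order, with replicate 1 highest and replicate 2 lowest.

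The log2 fold changes were -3.69 for CCNA2 (SE 0.488, adjusted p = 0.00106), -2.32 for CCNB1 (SE 0.426, adjusted p = 0.00409) and -3.36 for CDK1 (SE 0.667, adjusted p = 0.00565) by the edgeR quasi-likelihood test. These are levels 12.9-fold, 5.01-fold and 10.2-fold lower in Hermes 3A cells. All 3 genes were called under every alternative. Without Hermes 3A replicate 1 the log2 fold changes were larger, at -4.30 for CCNA2, -2.85 for CCNB1 and -4.32 for CDK1. EXOSC9, which shares 254 exonic bases with CCNA2 on the opposite strand, was at 57.0 and 68.9 CPM in 501Mel cells and at 22.3 to 36.3 CPM in Hermes 3A cells. In Hermes 3A cells CCNA2 had only 0.127 to 0.333 of the counts of EXOSC9. The strand setting is not given, and how many CCNA2 counts are EXOSC9 reads was not tested. CCNB1 and CDK1 overlap no other annotated exon.

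The gap between the lines was smaller for CCNB1 than for CCNA2. The ratio of CCNB1 to CCNA2 per kb was 1.22 and 1.84 in 501Mel cells against 3.66, 4.04 and 3.98 in Hermes 3A cells. Although both genes varied more than 3-fold among the Hermes 3A libraries, their ratio there stayed within a narrow range, above both 501Mel values (exact permutation test, two-sided, p = 0.1, the smallest possible). The difference of the log2 ratios was 1.38. The balance of CDK1 and CDK4 differed most of the 8 pairs compared. CDK1 per kb was 0.836 and 0.686 of CDK4 in 501Mel cells and 0.0723, 0.0168 and 0.0313 of CDK4 in Hermes 3A cells, again without overlap (exact permutation test, two-sided, p = 0.1). Of the 8 pairs compared, 7 gave this smallest p of the exact permutation test and CCND1 to CCND2 gave p = 0.2, so that none could pass a threshold of 0.05, adjusted or not.

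**Figure D3:**
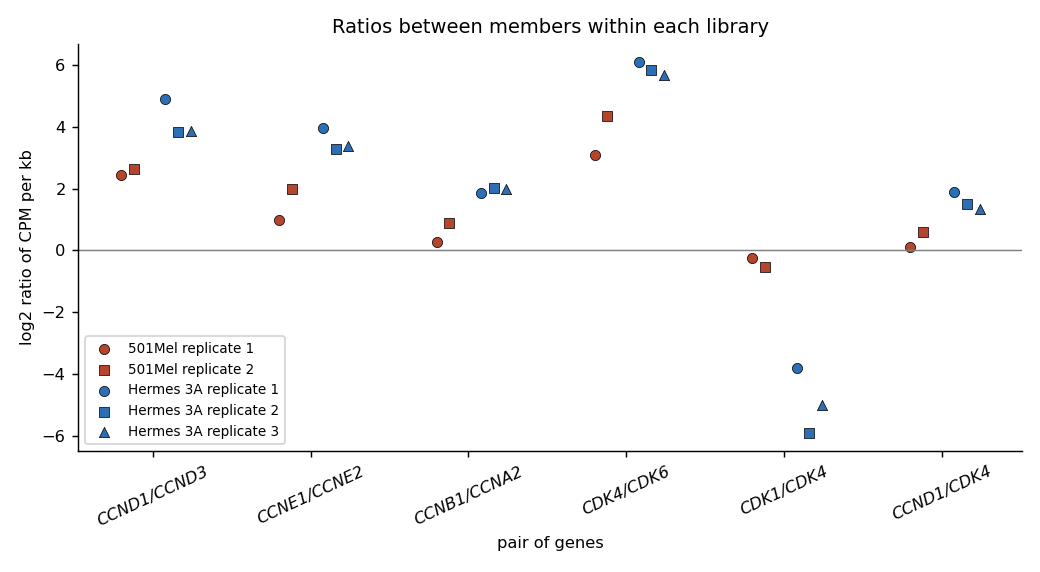
log2 ratio of CPM per kb (union of exons) between pairs of the genes within each library, 501Mel in red and Hermes 3A in blue, without the pairs that hold the barely detected CCND2. The lines do not overlap in any of the 6 pairs, and CDK1 relative to CDK4 sets them furthest apart (difference -4.49).

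The promoters of the 3 genes are shown because the genes were lower together and because cell cycle promoters of the S to M phase are known for CCAAT boxes, bound by NF-Y, and for the TTTGAA element called the cell cycle genes homology region. Each window of 300 bases is given 5′ to 3′ on the strand of its gene in GRCh38.p14 (RefSeq), with matches of CCAAT, of the TTTGAA element and of the E-box CACGTG in capitals on either strand, and no such matches overlap. The windows are chr4:121823834-121824133 on the minus strand for CCNA2, chr5:69166900-69167199 on the plus strand for CCNB1 and chr10:60778228-60778527 on the plus strand for CDK1, the window with more matches of the 2 listed.
CCNA2: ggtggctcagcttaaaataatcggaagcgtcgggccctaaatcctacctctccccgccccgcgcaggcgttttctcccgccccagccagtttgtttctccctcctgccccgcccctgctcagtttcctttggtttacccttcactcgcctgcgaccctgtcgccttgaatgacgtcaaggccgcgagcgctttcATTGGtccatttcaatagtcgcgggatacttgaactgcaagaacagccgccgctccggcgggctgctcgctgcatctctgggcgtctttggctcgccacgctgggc
CCNB1: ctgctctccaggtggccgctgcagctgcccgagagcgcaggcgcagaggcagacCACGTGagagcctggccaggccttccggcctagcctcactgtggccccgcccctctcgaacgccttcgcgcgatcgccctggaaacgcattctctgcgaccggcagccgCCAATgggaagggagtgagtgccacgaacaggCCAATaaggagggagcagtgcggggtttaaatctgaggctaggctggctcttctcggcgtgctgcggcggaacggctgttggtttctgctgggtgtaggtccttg
CDK1: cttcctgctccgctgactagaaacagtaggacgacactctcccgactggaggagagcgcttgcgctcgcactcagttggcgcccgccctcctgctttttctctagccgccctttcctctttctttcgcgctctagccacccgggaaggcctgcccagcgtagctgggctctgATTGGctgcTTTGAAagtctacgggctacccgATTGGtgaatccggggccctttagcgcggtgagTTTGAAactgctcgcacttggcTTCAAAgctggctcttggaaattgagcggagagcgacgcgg
CCAAT occurs 1 time in CCNA2 and 2 times each in CCNB1 and CDK1, where 34.6% of all promoter windows hold it at least once and 10.8% at least 2 times. TTTGAA occurs 3 times in CDK1 and not in the windows of CCNA2 and CCNB1, against 15.2% of all windows with at least 1 match and 0.293% with at least 3. Only these exact letters were searched and no variant forms, so CCNA2 and CCNB1 are not shown to lack the element. CACGTG occurs 1 time in CCNB1. The E2F forms TTTGGCG (1.92% of all windows) and TTTCCCG (4.29%) were in no window of the 7 genes for which windows were found, and the GC box GGGCGG (45% of all windows), left in lower case, was in a window of all 7. CCND3 held CCAAT in 2 of its windows and CDK6 held CACGTG in the first of its 2.

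The members differed in their spread within Hermes 3A cells. From the lowest to the highest Hermes 3A library CDK1 varied 6.19-fold, CCND2 with its few counts 3.49-fold, CCNA2 3.40-fold, CCNB1 3.08-fold and CCND1 1.85-fold, while CCNE1 varied 1.08-fold. On the log2 scale the SD of CDK1 was 1.32 against a median of 0.253 over the genes tested, and that of CCNE1 was 0.0577. Hermes 3A replicate 1 was the highest of the 3 libraries for 20 of 20 other G2/M genes, which summed to 486 CPM there against 140 and 260 CPM in replicates 2 and 3. Replicate 1 was also the highest for 13 of 16 G1/S genes, among them RRM2 (29.7 CPM against 4.04 and 11.5), TK1 (17.7 CPM against 3.01 and 6.35) and MCM10 (2.30 CPM against 0.465 and 0.998). The summed level of the 16 genes was 545, 500 and 521 CPM, and PCNA (141, 176 and 177 CPM) and MCM7 (59.9, 73.6 and 74.8 CPM) were lowest in replicate 1. Of all genes tested, replicate 1 was the highest of the 3 for 33.0%. In 501Mel cells the widest spread was that of CDK6 (2.85-fold) and CCNE2 (2.45-fold), and that of CDK1 was 1.42-fold. In bulk RNA a smaller share of dividing cells and less RNA of these genes in each dividing cell cannot be told apart.

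**Figure D4:**
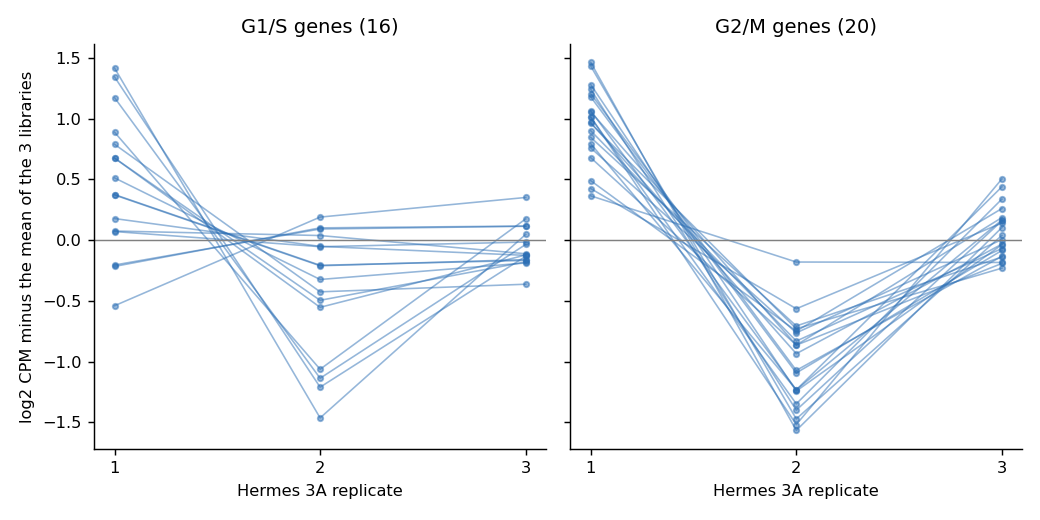
log2 CPM in each Hermes 3A library minus the mean of the 3 libraries, with a line for each gene, for the 16 G1/S genes and the 20 G2/M genes. All 20 G2/M genes and 13 of 16 G1/S genes are highest in replicate 1.

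Levels of different genes can be set side by side only per kb, and they then depend on the transcript length. With the union of exons CCND1 had the highest level in both lines, at 74.6 ± 9.68 CPM per kb (SD, n = 2) in 501Mel cells and 289 ± 99.4 (SD, n = 3) in Hermes 3A cells, followed by CDK4 at 58.0 ± 6.29 and 93.9 CPM per kb. In 501Mel cells CCNB1 (53.0), CDK1 (44.5) and CCNA2 (36.0 CPM per kb) came next. CCNB1 overlapped in its libraries with CDK4 and with CDK1, while CDK4 was above CDK1 in both. In Hermes 3A cells CCND3 came next (15.1 CPM per kb), before CCNB1, CDK1, CCNE1 and CCNA2 at 9.98, 4.06, 3.44 and 2.62 CPM per kb. Each overlapped with the gene before it across libraries. Within every Hermes 3A library, however, CCNB1 was above CDK1 and CDK1 above CCNA2, the latter barely in replicate 2 (1.270 against 1.268 CPM per kb). CCNB1 was above CCND3 in replicate 1 only. CCNE2 and CCND2 were the lowest in both lines. With the median transcript length CCND1 and CDK4 were again the highest and CCND2 the lowest in both lines, but the order between them changed. In 501Mel cells CCND3 (125 CPM per kb) was then above CDK1 (102), CDK6 (78.8) above CCNA2 (36.0) and CCNE2 above CCNE1. In Hermes 3A cells CDK6 (25.1 CPM per kb) was then above CDK1 (9.27), while CCNE1 (6.78) stayed above CCNA2 (2.62). The DSN step of the library preparation removes part of the most abundant cDNA and can compress such levels.

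Genes of related function were grouped in 10 lists. Each count is to be read against the 48.4% of all genes called, 24.1% higher and 24.3% lower in Hermes 3A cells. The S phase and mitotic genes followed CCNA2, CCNB1 and CDK1. All 16 of 16 G1/S genes were called lower in Hermes 3A cells, with a median log2 fold change of -3.03 where the median of all genes was -0.02, and their summed level was 2741 and 2264 CPM in 501Mel cells against 500 to 545 CPM. Among them were the replication factors MCM10 (62.2 and 41.1 CPM against 0.465 to 2.30) and CDC45 (85.0 and 64.2 CPM against 1.66 to 6.43) and the ribonucleotide reductase subunit RRM2 (254 and 169 CPM against 4.04 to 29.7). All 20 of 20 G2/M genes were called lower, with a median of -3.21, and summed to 2957 and 2297 CPM in 501Mel cells against 140 to 486 CPM. AURKB and CDCA2 of this list are named in the paper, with CCND1, as repressed after BPTF silencing in Hermes 3A cells. AURKB and CDCA2 are therefore no independent choice. The topoisomerase TOP2A (282 and 170 CPM against 3.43 to 13.9), the checkpoint kinase gene BUB1B (96.5 and 61.1 CPM against 2.01 to 9.87) and BIRC5, which encodes survivin (108 and 104 CPM against 2.57 to 14.8), differed most. When any library was left out, at least 15 G1/S genes and at least 18 G2/M genes were called lower.

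Of 9 activators and inhibitory kinases of CDKs, 7 were called lower in Hermes 3A cells and none higher, and without 501Mel replicate 2 or without Hermes 3A replicate 3 it was 4. With all 5 libraries 77.8% of this list was called, against 48.4% of all genes. MNAT1 (log2 fold change -0.17, adjusted p = 0.520, edgeR quasi-likelihood test) and CDC37 (0.17, adjusted p = 0.444) did not pass. CKS1B, a CDK-binding subunit, was at 56.6 and 61.5 CPM in 501Mel cells and at 6.58 to 15.7 CPM in Hermes 3A cells. The phosphatases that activate CDKs, CDC25A (62.0 and 58.3 CPM against 8.37 to 14.6) and CDC25C (8.53 and 11.3 CPM against 0.636 to 3.36), were lower too, and so was WEE1, the kinase that restrains CDK1 (58.6 and 47.3 CPM against 15.3 to 20.3). Of the 13 genes of the RB and E2F family 9 were called lower and none higher, which is 69.2% called against 48.4% of all genes. E2F8 (11.5 and 13.2 CPM against 0.245 to 0.552), E2F2 (39.4 and 23.8 CPM against 0.856 to 2.62) and E2F1 (60.3 and 51.8 CPM against 3.50 to 12.1) differed most. RBL2, E2F5, E2F7 and RB1 did not pass the test, with RB1 at a log2 fold change of -0.11 (adjusted p = 0.584, edgeR quasi-likelihood test).

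The CDK inhibitors went both ways, with 3 of 8 called higher in Hermes 3A cells and 2 lower. That is 62.5% called against 48.4% of all genes, so the count says little of a list of 8. CDKN1A (ENSG00000124762), which encodes p21, had 0 counts in both 501Mel libraries and 33363, 31620 and 34023 counts in Hermes 3A cells. These are 801, 774 and 1131 CPM, at least 24300-fold higher than the 0.0371 CPM that 3 counts over both 501Mel libraries would give. The gene was listed in the files of both lines. Whether its 0 counts in 501Mel cells come from the cells or from the counting was not tested. CDKN1C, which encodes p57, was at 1.42 and 0.475 CPM against 6.22 to 13.0 CPM in Hermes 3A cells, and CDKN2A, which encodes p16 and p14ARF, at 78.5 and 62.3 CPM against 113 to 137 CPM. CDKN2C (23.8 and 31.8 CPM against 5.83 to 9.04), which encodes p18, and CDKN3 (28.6 and 21.3 CPM against 5.42 to 11.5), a phosphatase of CDKs, were lower. CDKN1B, which encodes p27, was at 63.8 and 78.7 CPM in 501Mel cells and at 62.8 to 75.5 CPM in Hermes 3A cells and was not called (log2 fold change 0.03, adjusted p = 0.903, edgeR quasi-likelihood test).

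Among the 12 genes of cyclin turnover 5 were called lower and 2 higher, and without 501Mel replicate 1 it was 3 and 1. With all 5 libraries 58.3% of this list was called, near the 48.4% of all genes, so the count says nothing particular of it. CDC20 and UBE2C, also on the G2/M list, through which the anaphase-promoting complex destroys cyclins A and B, were at 122 and 106 CPM and at 84.8 and 64.7 CPM in 501Mel cells. In Hermes 3A cells they were at 3.03 to 22.7 and at 2.15 to 17.6 CPM. SKP2, which directs p27 to destruction, was at 165 and 154 CPM against 25.1 to 32.7 CPM. CRYAB, a chaperone that works with FBXO4 on cyclin D1, was higher (6.39 and 12.4 CPM against 49.7 to 112), as was AMBRA1, which directs D cyclins to destruction (54.0 and 68.0 CPM against 80.6 to 87.4). FBXO4 itself was at 1.36 to 2.09 CPM and did not differ beyond the spread (log2 fold change 0.17, adjusted p = 0.743, edgeR quasi-likelihood test).

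Of 16 genes that respond to mitogens or to β-catenin, as CCND1 does, 5 were called higher in Hermes 3A cells and 3 lower, and 8 and 5 without the filter on low counts. That is 8 of 16 called, near the 48.4% of all genes, so the counts say nothing particular of this list. FOSL1, an AP-1 subunit, was at 8.60 and 1.64 CPM in 501Mel cells and at 50.5 to 115 CPM in Hermes 3A cells, JUN at 38.2 and 24.9 CPM against 110 to 207 CPM, and DUSP4, a phosphatase induced by ERK, at 169 and 161 CPM against 294 to 617 CPM. Like CCND1, FOSL1 and DUSP4 were highest in Hermes 3A replicate 1, whereas JUN was lowest there (110 CPM against 149 and 207). Replicate 1 was the highest of the Hermes 3A libraries for 10 of the 16 genes, against 33.0% of all genes tested. The Wnt target AXIN2 (105 and 121 CPM against 5.40 to 11.4), the ETS factor ETV5 (275 and 270 CPM against 70.8 to 123) and LEF1 (136 and 111 CPM against 57.1 to 64.7) were lower. MYC did not pass the test (log2 fold change 0.32, adjusted p = 0.261, edgeR quasi-likelihood test).

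**Figure D5:**
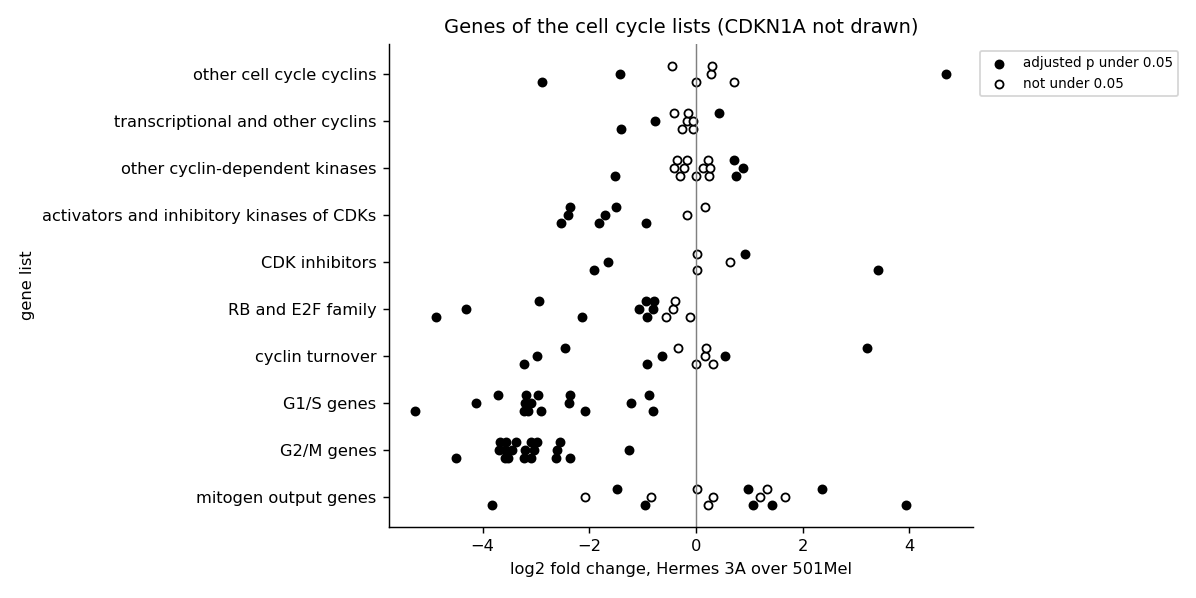
log2 fold change (Hermes 3A over 501Mel) of each gene of the 10 cell cycle lists, filled where the adjusted p was under 0.05, with CDKN1A left out because it had no 501Mel count. All G1/S and G2/M genes lie left of 0 and are filled, whereas the CDK inhibitors and the other cyclins lie on both sides.

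Cyclins B2 and F, which act in G2 and mitosis, were lower in Hermes 3A cells. CCNB2 was at 81.3 and 68.0 CPM in 501Mel cells and at 5.19 to 14.2 CPM in Hermes 3A cells, and CCNF at 61.0 and 53.6 CPM against 20.2 to 20.6 CPM. CCNO, a cyclin of ciliated cells, was higher in Hermes 3A cells (0.395 and 0.0264 CPM against 3.66 to 7.39). Of the 8 other cell cycle cyclins tested these 3 were called, and without Hermes 3A replicate 1 it was 5 of 7. The 3 of 8 are 37.5%, below the 48.4% of all genes called, so the count is no mark of this list. CCNG1 and CCNI, cyclins without a marked cell cycle rhythm, were at 246 to 468 and 211 to 273 CPM and did not pass the test (adjusted p = 0.367 and 0.986, edgeR quasi-likelihood test).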

How the data were processed

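The data are RNA-seq of shBPTF cells, with 2 libraries of 501Mel and 3 of Hermes 3A, grouped and numbered by their titles. Per the labels, total RNA was depleted of ribosomal RNA, fragmented, reverse transcribed and treated with a duplex-specific nuclease (DSN), and the submitters' processing notes name CASAVA 1.8, TopHat 1.4.1, Bowtie 0.12.7 and hg19. The authors deposited raw read counts for each gene, whole numbers that had not been normalized. The counting program, its annotation and its strand setting are not given in the sources used here, and depleting abundant cDNA by DSN can compress differences.

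CPM were computed from the total counts. Hermes 3A was compared with 501Mel in edgeR 4.0.16 (glmQLFit and glmQLFTest, TMM, filterByExpr) in R 4.3.3 on the 31029 genes listed in all files, which hold 99.3% to 99.9% of the counts, with Benjamini-Hochberg adjustment over 17918 genes and calls at 0.05. DESeq2 1.42.0 was an alternative. Both tests were tested on simulated data. Ratios between genes were compared with an exact permutation test over libraries (scipy 1.17.1). Names and lengths came from GENCODE 29, which is on another build than the counts, so no gene coordinates are given. Promoter windows came from RefSeq (GRCh38.p14), with 7 of 10 genes matched and CCND1, CCND2 and CCNE2 without a match. The chi-square between replicates, per gene, came to 19.4 or more, so no libraries were counted as 1 sample.

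The genes and lists were chosen with earlier results of these data known. Named are the 10 genes, BPTF, in each list up to 3 called genes in each direction with the largest change and no overlap, and for each of the 10 genes the 3 genes of nearest profile. WEE1, MNAT1, CDC37, RB1, RBL2, E2F5, E2F7, TK1, PCNA, MCM7, CDKN1B, FBXO4, MYC, CCNG1, CCNI, COL3A1 and CDK2, and genes overlapping the members, were named after their values were seen.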

Additional observations from a re-analysis of the deposited data

How the results depend on the processing

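Of the 10 genes none changed direction under any alternative. CCNE1, with a log2 fold change of -0.63, was no longer called with RLE size factors (-0.62), without the filter on low counts (-0.60) or with the replicate number as a block (-0.65), and ranged from -0.74 to -0.49 when each library was left out. Leaving out a library gave 5 to 7 called genes of the 10, with log2 fold changes from 3.11 to 4.22 for CCND2, 0.63 to 0.97 for CDK4 and -2.12 to -0.64 for CDK6. The difference of the log2 ratio of CCNB1 to CCNA2 then ran from 1.08 to 1.68 and that of CDK4 to CDK6 from 1.51 to 2.80. With 501Mel reduced to 1 library, it is assumed to vary like the Hermes 3A libraries. CCND2 could not be tested without Hermes 3A replicate 1 or 2, nor at a minimum of 50 counts.

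The number of genes called was 8664, 9067 with DESeq2, and 7496 with the replicate number as a block, where 8 of the 10 genes were called. The labels do not say that equal numbers mark a shared batch, and deviations of same-numbered libraries correlated at 0.102 and 0.137 over 2 pairs, which does not settle a pairing. The replicate block ended no other call among the 10. The order of the levels per kb depends on the transcript length used. Depth limits CCND2 most, and CCNE2 had only 40 to 61 counts in each Hermes 3A library.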

Other observations

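The remaining cyclins and kinases, many of which serve transcription, were read from 2 further lists. Of 9 transcriptional and other cyclins 2 were called lower in Hermes 3A cells and 1 higher, with a median log2 fold change of -0.17. That is 33.3% called, below the 48.4% of all genes. CCNYL1 was at 66.7 and 67.2 CPM in 501Mel cells and at 22.8 to 25.4 CPM in Hermes 3A cells, CCNL1, a cyclin of RNA processing, at 149 and 159 CPM against 71.7 to 101 CPM, and CCNK, the partner of CDK12, at 54.8 and 49.6 CPM against 63.1 to 71.4 CPM. Of 14 other cyclin-dependent kinases tested 28.6% were called, against 48.4% of all genes, 3 higher and 1 lower. These were CDK19 (33.2 and 38.9 CPM against 40.8 to 83.2), CDK5 (28.7 and 29.4 CPM against 42.8 to 52.5), CDK10 (40.4 and 43.3 CPM against 49.0 to 87.4) and, lower, CDK14 (5.67 and 3.99 CPM against 1.33 to 1.75). None of the 14 was called without 501Mel replicate 1 and 1 without Hermes 3A replicate 3, while 2 were called without 501Mel replicate 2 or Hermes 3A replicate 2. CDK2 stood at 546 to 1209 CPM. It shares 89 exonic bases with the opposite-strand gene PMEL, which was at 5023 to 19182 CPM, and how many of its counts are PMEL reads was not tested.

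Among 13905 genes with a mean of at least 1 CPM, the profiles nearest to each of the 10 genes were taken by the root mean square difference of centred log2(CPM + 1) over the 5 libraries, as a description of likeness. CDK1 was nearest to CDC20 (0.125), KIF2C (0.161) and NCAPG (0.162), and CCNA2 to TPX2 (0.0761), NCAPH (0.0912) and CDCA8 (0.0926). CCNB1 was nearest to SPC25 (0.107), SKA1 (0.138) and NEK2 (0.179). These genes are known for work on the centrosome, the mitotic spindle, the kinetochore, the chromosomes or the exit from mitosis. CCND1 was nearest to LOX (0.0858), which encodes lysyl oxidase, ME1 (0.0905), the cytosolic malic enzyme, and DMRT2 (0.115), which had no count in 501Mel cells. CCNE1 was nearest to ATP13A3 (0.0237), RPS4X (0.0250) and UBOX5 (0.0260), CCNE2 to EML4 (0.106), GHR (0.141) and RAP1GAP2 (0.156), and CCND3 to NDUFV1 (0.0279), RPP21 (0.0308) and CSNK1E (0.0340). CDK4 was nearest to DOHH (0.0523), TPST2 (0.0761) and SHC1 (0.0761), and CDK6 to GREB1L (0.144), HBEGF (0.156) and LHX6 (0.176). For CCND2, whose centred values are small at its few counts, they were VSIG10 (0.0425), WHAMMP2 (0.0501) and KIAA0319 (0.0503).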
